A study of Mus musculus with 7 samples.

Results

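Single-cell RNA profiles of E14.5 and E12.5 mouse dorsal forebrain were compared inside 7 cell clusters, so that a change between stages could be read without the shift from progenitors to neurons that accompanies it. The comparison covered 5612 of the 10261 cells in the matrix, 2510 of E12.5 and 3102 of E14.5. They were those that the authors' cluster labels placed in labels 1, 3 and 10 (progenitors), 4 and 7 (intermediate cells) or 0 and 2 (neurons). All embryos were of the CD-1 strain, with no genotype, treatment or transgene given, and cells were captured by Drop-seq, a droplet method that tags each mRNA molecule with a cell barcode and a unique molecular identifier (UMI). E12.5 was 1 sample in 2 libraries, E12_1 and E12_2. E14.5 was 2 samples in 3 libraries, E14_1 and E14_2.1 of the first and E14_2.2 of the second, where E14_2.1 was placed by inference because the label lists only a shorter form of its name. Whether embryos were pooled is not stated. The p-values below therefore measure the spread between libraries, which may be technical, and stage cannot be told apart from the batch in which each stage was captured.

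In the developing neocortex, apical progenitors line the ventricle, divide, and pass through intermediate progenitors to projection neurons. Deep-layer neurons are born first and upper-layer neurons later, and the progenitors themselves change with age, losing early growth regulators and gaining genes later used by glia. Nuclear factor I proteins, among them Nfia, Nfib, Nfic and Nfix, are transcription factors that are known for rising during this period.

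The 5 libraries held 1358, 1152, 1632, 1124 and 346 cells in the order E12_1, E12_2, E14_1, E14_2.1 and E14_2.2, which is the order of all values below. Their UMI totals within the 7 labels ran from 1231901 to 3197474, with medians of 1575 to 3104 UMIs per cell, the highest in E14_2.2. That library gave only 10 cells to label 7, 20 to label 10 and 22 to label 3. Of 16 apical progenitor markers, 12, 8 and 11 were at least 2-fold higher in labels 1, 3 and 10 than in other cells. Of 12 intermediate progenitor markers, 10 and 8 were so in labels 4 and 7, and of 16 projection neuron markers, 11 and 14 were so in labels 0 and 2, while label 0 also had 5 of the 12 intermediate markers. Microglial and endothelial markers reached no more than 2.96 and 7.47 CPM summed over the list in any label. Mesenchymal, interneuron and Cajal-Retzius markers reached up to 76.2, 135 and 230 CPM. The Cajal-Retzius sum was highest in label 0, at 303 and 309 CPM against 241, 189 and 173 CPM. In labels 7, 0 and 2 each E14.5 sum of that list lay below both E12.5 sums. The part of such cells or their RNA in the changes with stage was not tested. The label numbers were made by the authors from the same expression values, so that fixing the label fixes the cluster and not each gene that defines it. The 2 E12.5 libraries and E14_1 and E14_2.1 also differed by the number in the library name: ribosomal protein genes took 3.06% to 5.67% of UMIs in the suffix 1 libraries and 4.67% to 8.15% in E12_2 and E14_2.1. In E12_1 and E14_1, 257 cells shared the first 11 of 12 barcode bases with another cell of the library, as split barcodes do. 2 barcodes, carried by 5 cells, occurred in more than 1 of the 5 libraries.

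Between 10 and 131 genes per label changed between the stages. UMIs were summed per label and library and tested with edgeR's quasi-likelihood test, and a gene is said to rise or fall where its Benjamini-Hochberg adjusted p is under 0.05. In label 1, of progenitors, 65 genes rose (0.942% of 6898 tested) and 41 fell (0.594%), or 1.54% together. In label 3, 47 rose (0.652% of 7208) and 14 fell (0.194%), or 0.846% together, and neuron markers were higher there at E14.5, as given below. In label 10, 45 rose (0.768% of 5859) and 19 fell (0.324%), or 1.09% together. The intermediate cells of label 4 had 22 that rose (0.441% of 4986) and 27 that fell (0.542%), or 0.983% together. Those of label 7 had 4 that rose (0.136% of 2941) and 6 that fell (0.204%), or 0.34% together. Among neurons, 66 rose (0.975% of 6768) and 43 fell (0.635%) in label 0, or 1.61% together. In label 2, 63 rose (0.941% of 6694) and 68 fell (1.02%), or 1.96% together. Labels differ in depth and in the number of cells, so that these counts do not rank the labels. Levels are given in CPM, the UMIs of a gene relative to the scaled total of the label and library. All 530 calls had the same direction in E14_1 against E12_1 and in E14_2.1 against E12_2. That is no separate support, since the calls were made from these libraries and groups that lie apart must share a direction. The 3 E14.5 values lay apart from both E12.5 values for all calls but 1 in label 1. That 1, named after its values had been seen, was the ribosomal protein gene Rpl26, at 19.4 and 26.8 CPM against 157, 186 and 14.05 CPM, with E14_2.2 below both E12.5 libraries. Over all genes tested the groups lay apart for 29.1%, 24.8% and 27.3% in labels 1, 3 and 10, for 29.9% and 23.5% in labels 4 and 7, and for 31.1% and 31.6% in labels 0 and 2. Of the 530 calls, 113 held when any 1 of the 5 libraries was left out.

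**Figure D1:**
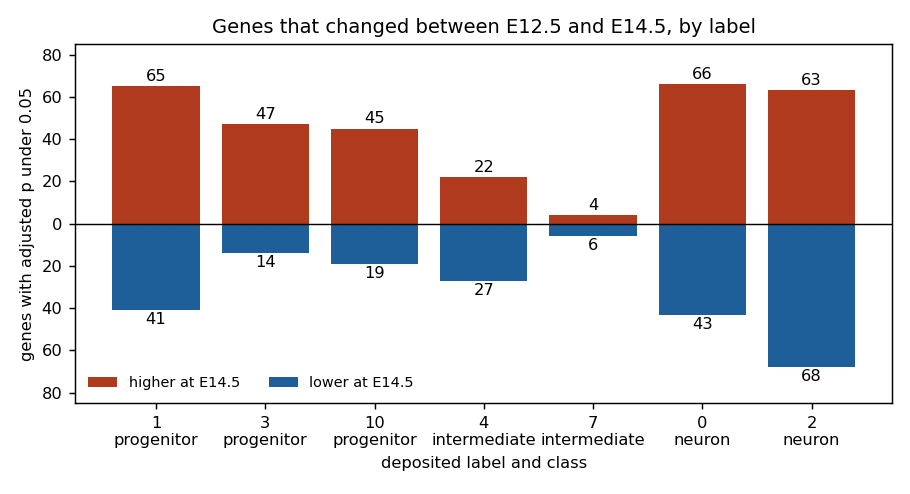
Number of genes higher (upward bars) or lower (downward bars) at E14.5 than at E12.5 with an adjusted p under 0.05, for each of the 7 labels on the horizontal axis. Label 2 has the most calls, 63 up and 68 down, and label 7 the fewest, 4 up and 6 down.

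Most changes were called in 1 cell class. Of 192 genes that rose in any label, 72 were called in progenitor labels alone, 6 in intermediate labels alone and 91 in neuron labels alone, and of 152 that fell, 37, 16 and 84 were so placed. A gene called in 1 class and not in another is not thereby shown to differ between them. Of the 4783 genes tested in all 3 classes, 6 rose (0.125%) and 7 fell (0.146%) in at least 1 label of each, 0.272% together. The genes that rose in all 3 classes were Nfix, Fam210b, Draxin, Cttnbp2, Inhbb and Zbtb20. The genes that fell in all 3 were Crabp2, Mthfd2, Chac1, Rn7sk, Cntnap2, Gng3 and the mitochondrial ribosomal RNA mt-Rnr2. With DESeq2, 6 of these 13 still changed in all 3 classes, namely Nfix, Draxin, Mthfd2, Rn7sk, Cntnap2 and mt-Rnr2. The other 7, Fam210b, Cttnbp2, Inhbb, Zbtb20, Crabp2, Chac1 and Gng3, did not. Gabra2, a GABA receptor subunit, was the only gene called in opposite directions: it rose in label 0 from 27.1 and 15.4 CPM to 72.4, 107 and 97.1 CPM, and fell in label 2 from 199 and 170.1 CPM to 58.2, 55.8 and 86.3 CPM. Gabra2 lost its call in label 0 without E12_2 or E14_2.2 (adjusted p up to 0.0946) and in label 2 without E12_1, E14_1 or E14_2.1 (adjusted p up to 0.0671).

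**Figure D2:**
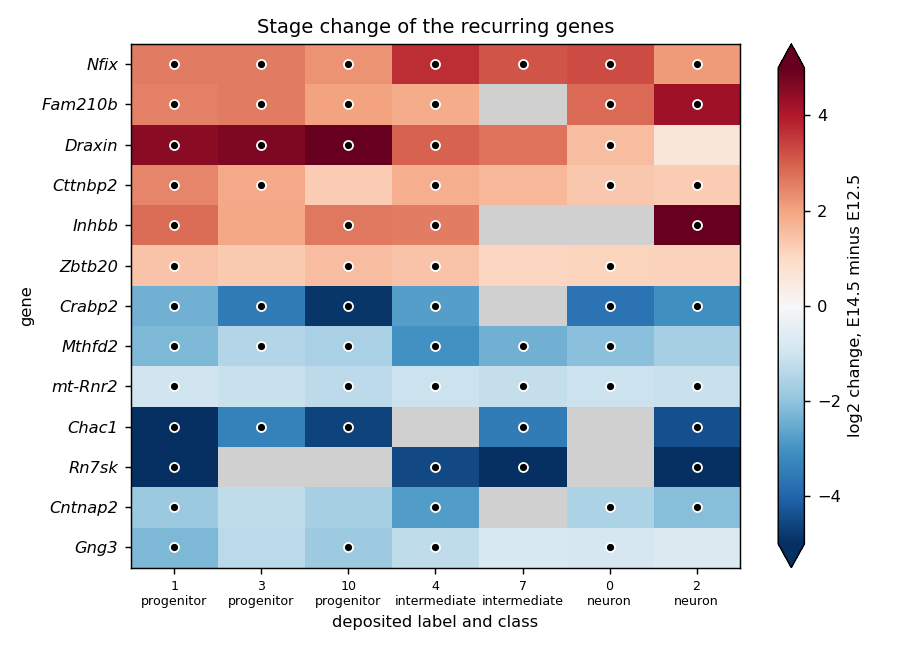
Log2 change from E12.5 to E14.5 (colour) of the 13 genes that changed in all 3 classes (vertical axis) in each of the 7 labels (horizontal axis). Nfix is the one gene called in all 7 labels, with changes of 2.12 to 3.69.

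Nfix, the nuclear factor I gene on chromosome 8, 84699876 to 84800344 (GRCm38, GENCODE vM21 annotation), rose in all 7 labels. In the progenitors of label 1 it was at 97.1 and 126 CPM at E12.5 and 468, 758 and 794 CPM at E14.5 (log2 change 2.58, SE 0.30, adjusted p = 0.000691). In label 3 Nfix was at 70.1 and 120.1 CPM against 461, 682 and 570.2 CPM (log2 change 2.58, SE 0.31, adjusted p = 0.00340). In label 10 Nfix was at 102 and 123 CPM against 476, 524 and 598 CPM (log2 change 2.23, SE 0.27, adjusted p = 0.000839). Each E14.5 library was above both E12.5 libraries in all 3 progenitor labels. In the intermediate cells of label 4 it was at 89.4 and 83.5 CPM at E12.5 and 874, 1462 and 1052 CPM at E14.5 (log2 change 3.69, SE 0.33, adjusted p = 6.92e-05). In label 7 Nfix was at 98.5 and 101 CPM against 844, 1052 and 752 CPM (log2 change 3.15, SE 0.27, adjusted p = 3.50e-05). Again no E14.5 library overlapped an E12.5 library. In the neurons of label 0 it was at 103 and 173 CPM at E12.5 and 1136, 1215 and 1556 CPM at E14.5 (log2 change 3.25, SE 0.29, adjusted p = 4.47e-05). In label 2 Nfix was at 225 and 346 CPM against 1066, 1221 and 1436 CPM (log2 change 2.12, SE 0.26, adjusted p = 0.00133). The E12.5 level was highest in label 2, where the change was smallest, and the E14.5 levels were higher in intermediate cells and neurons than in progenitors in every library, except that label 7 lay below label 1 in E14_2.2. Within the library suffixes the log2 change was 2.26 within suffix 1 and 2.58 within suffix 2 in label 1 and 3.44 within suffix 1 and 2.81 within suffix 2 in label 0. The call held in all 7 labels with any 1 of the 5 libraries left out, and no other recurring gene did so in all of its labels.

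Of the other nuclear factor I genes, Nfic rose in labels 1 and 3, Nfib in labels 3, 10 and 0 and Nfia in none. In label 1 Nfic was at 14.6 and 8.04 CPM against 91.3, 47.9 and 56.2 CPM (log2 change 2.54, SE 0.51, adjusted p = 0.0207). In label 3 Nfic was at 22.8 and 22.9 CPM against 87.6, 137 and 76.0 CPM (log2 change 2.16, SE 0.36, adjusted p = 0.0170). It did not pass in label 10 (log2 change 1.67, adjusted p = 0.162) or label 0 (log2 change 1.70, adjusted p = 0.196) and was too rare to test in labels 4, 7 and 2. Nfic lost its call in label 1 without E12_2, E14_1 or E14_2.2 (adjusted p up to 0.0887) and in label 3 without E14_1 or E14_2.1 (adjusted p up to 0.107). In label 3 Nfib was at 650.2 and 581 CPM against 1567, 1483 and 1178 CPM (log2 change 1.20, SE 0.24, adjusted p = 0.0396). In label 10 Nfib was at 597 and 620.1 CPM against 1589, 1681 and 1245 CPM (log2 change 1.31, SE 0.24, adjusted p = 0.0113). In label 0 Nfib was at 2149 and 2162 CPM against 4460, 4125 and 3484 CPM (log2 change 0.90, SE 0.21, adjusted p = 0.0417). Within each library the Nfib level was higher in the neuron labels than in the other 5. Nfib lost its call in label 3 without E12_1, E12_2, E14_1 or E14_2.1 (adjusted p up to 0.239) and in label 10 without E14_1 (adjusted p up to 0.0885). Nfib lost its call in label 0 without E12_1, E12_2, E14_1 or E14_2.1 (adjusted p up to 0.310). The other 4 labels gave Nfib log2 changes of 0.96 in label 1, 0.97 in label 4, 0.71 in label 7 and 0.59 in label 2 that did not pass. Nfia passed in no label, and its log2 change ran from -0.18 in label 2 to 0.92 in label 1 (adjusted p = 0.0751).

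Draxin, a secreted protein that repels axons, on chromosome 4, 148098437 to 148130698, rose in the 3 progenitor labels and in labels 4 and 0. It was almost unseen in progenitors at E12.5, and label 1 gave 7.28 and 10.7 CPM at E12.5 and 214, 192 and 232 CPM at E14.5 (log2 change 4.51, SE 0.36, adjusted p = 2.80e-05). In label 3 Draxin was at 4.89 and 5.72 CPM against 117, 159 and 165 CPM (log2 change 4.65, SE 0.42, adjusted p = 0.000368). Label 10 gave 3.41 and 3.98 CPM against 193, 121 and 164 CPM. There the E12.5 libraries together held 2 UMIs, so that the ratio was 45.9-fold (95% interval 12.4 to 384) from counting alone. In label 4 Draxin was at 49.7 and 22.8 CPM against 199, 344 and 385 CPM (log2 change 2.96, SE 0.43, adjusted p = 0.00411). In label 0 Draxin was at 56.6 and 108 CPM against 256, 197 and 254 CPM (log2 change 1.54, SE 0.29, adjusted p = 0.0116). The neurons of label 2 already held the gene at E12.5, with 285 and 209 CPM against 372, 348 and 399.8 CPM, and the log2 change of 0.59 did not pass (adjusted p = 0.272). The change was smaller than in label 1 by 2.93 (SE 0.51, adjusted p = 3.62e-06) in label 0 and by 3.91 (SE 0.425, adjusted p = 6.56e-17) in label 2 in a test of the difference. The progenitor calls held with any 1 library left out. Draxin lost its call in label 4 without E14_2.2 (adjusted p up to 0.0569) and in label 0 without E12_1 or E14_2.2 (adjusted p up to 0.208). The difference between labels 1 and 0 was lost without E12_2.

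**Figure D3:**
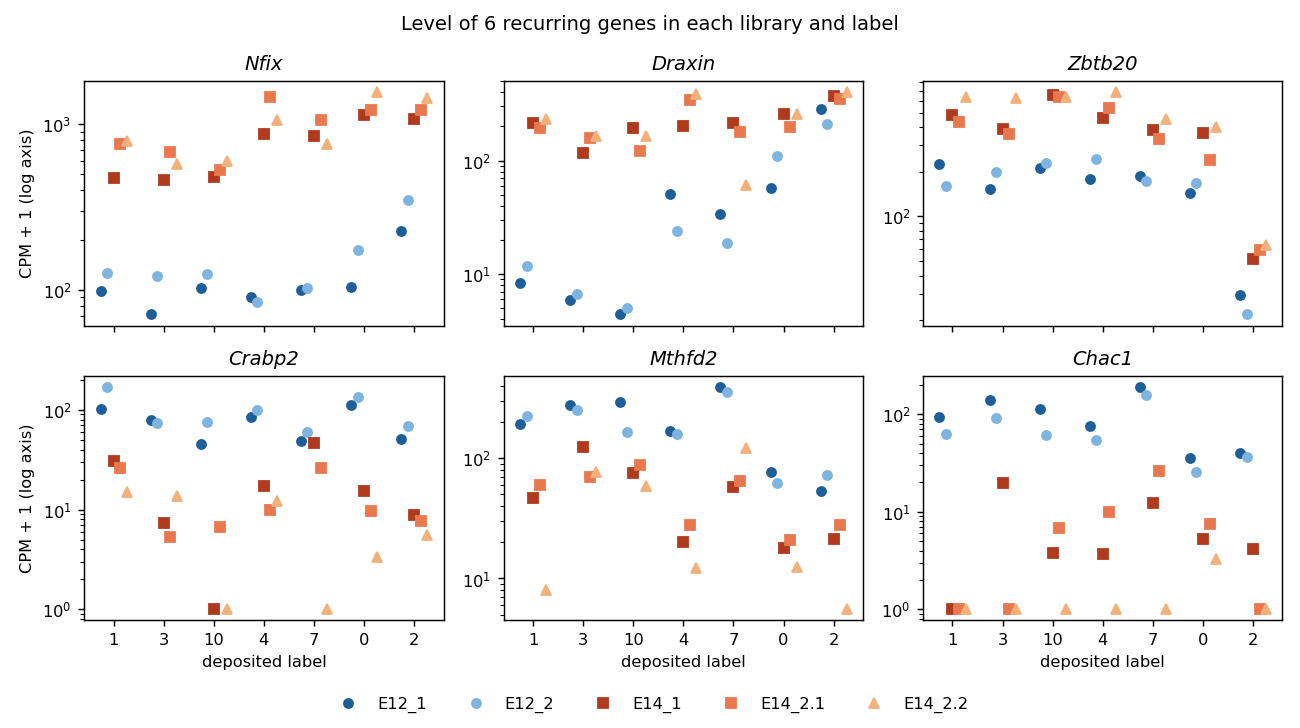
CPM (log axis) of 6 genes that changed in all 3 classes, with 1 point per library in each of the 7 labels on the horizontal axis. For Nfix the 3 E14.5 points lie above the 2 E12.5 points in all 7 labels, and for Draxin the E12.5 points are lowest in the progenitor labels.

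Fam210b, Zbtb20, Cttnbp2 and Inhbb were the other 4 genes that rose in all 3 classes. Fam210b, a mitochondrial membrane protein also known from developing red cells, on chromosome 2, 172345565 to 172355749, rose in 6 of the 6 labels in which it was tested. In label 1 Fam210b was at 43.7 and 16.1 CPM against 157, 155 and 246 CPM (log2 change 2.53, SE 0.38, adjusted p = 0.00360). In label 4 Fam210b was at 34.8 and 75.9 CPM against 205, 161 and 198 CPM (log2 change 1.85, SE 0.37, adjusted p = 0.0280). In label 0 Fam210b was at 9.85 and 9.27 CPM against 61.0, 65.8 and 83.2 CPM (log2 change 2.82, SE 0.44, adjusted p = 0.00413). In each the lowest E14.5 library was well above both E12.5 libraries. Erythroid markers summed to 3.65 to 152 CPM at E12.5 and 11.3 to 175 CPM at E14.5. In no label were their sums in all 3 E14.5 libraries above those in both E12.5 libraries. Members could be tested in labels 3, 0 and 2 only. There 2, 1 and 2 of the 9 members were tested. All of these were higher at E14.5 (median log2 change 2.75, 2.19 and 3.56), and none passed. Not every member was higher: in label 3 the untested Hbb-y had 21 UMIs at E12.5 and 3 at E14.5. Their part in the Fam210b rise was not tested. Zbtb20, a zinc finger transcription factor on chromosome 16, 42875881 to 43642602, rose in labels 1, 10, 4 and 0. In label 10 Zbtb20 was at 211 and 227 CPM against 656, 639 and 630.5 CPM (log2 change 1.55, SE 0.24, adjusted p = 0.00555). In label 4 Zbtb20 was at 179 and 243 CPM against 462, 536 and 685 CPM (log2 change 1.42, SE 0.28, adjusted p = 0.0276). All 3 E14.5 libraries lay above both E12.5 libraries in these 2 labels. Cttnbp2, a cortactin-binding protein of neurons, on chromosome 6, 18366478 to 18514843, rose in labels 1, 3, 4, 0 and 2. In label 0 Cttnbp2 was at 266 and 263 CPM against 610.5, 656 and 782 CPM (log2 change 1.37, SE 0.22, adjusted p = 0.00513). In label 1 Cttnbp2 was at 9.71 and 34.9 CPM against 115, 113 and 133 CPM (log2 change 2.42, SE 0.42, adjusted p = 0.00911). Its E12.5 level was thus far lower in label 1 than in label 0. Inhbb, which encodes a subunit of activin B and inhibin B, on chromosome 1, 119415465 to 119422248, rose in labels 1, 10, 4 and 2. In label 1 Inhbb was at 7.28 and 16.1 CPM against 79.4, 73.3 and 105 CPM (log2 change 2.81, SE 0.45, adjusted p = 0.00507). In label 2 it was at 0 in both E12.5 libraries and at 28.3, 15.6 and 27.3 CPM at E14.5, at least 5.69-fold higher when 3 UMIs over the E12.5 group are taken as the floor. Fam210b held its calls in labels 1 and 0 with any 1 library left out, Zbtb20 in label 10, and Cttnbp2 and Inhbb in label 1. Fam210b lost its call in label 3 without E14_1 (adjusted p up to 0.0669) and in label 10 without E12_2, E14_1 or E14_2.2 (adjusted p up to 0.0968). Fam210b lost its call in label 4 without E12_1, E14_1, E14_2.1 or E14_2.2 (adjusted p up to 0.338) and in label 2 without E12_1 (adjusted p up to 0.0534). Zbtb20 lost its call in label 1 without E12_2 (adjusted p up to 0.113) and in label 4 without E12_1, E12_2, E14_2.1 or E14_2.2 (adjusted p up to 0.267). Zbtb20 lost its call in label 0 without E12_1, E12_2, E14_1 or E14_2.2 (adjusted p up to 0.310). Cttnbp2 lost its call in label 3 without E12_1, E14_1, E14_2.1 or E14_2.2 (adjusted p up to 0.218) and in label 4 without E12_1, E12_2, E14_1 or E14_2.2 (adjusted p up to 0.141). Cttnbp2 lost its call in label 0 without E12_1 or E12_2 (adjusted p up to 0.0639) and in label 2 without E12_1, E12_2, E14_2.1 or E14_2.2 (adjusted p up to 0.226). Inhbb lost its call in label 10 without E12_2, E14_1, E14_2.1 or E14_2.2 (adjusted p up to 0.167) and in label 4 without any 1 of the 5 libraries (adjusted p up to 0.141). Inhbb lost its call in label 2 without E12_1, E12_2, E14_1 or E14_2.2 (adjusted p up to 0.273, not tested without E14_1 or E14_2.2). Neither Inhbb nor Zbtb20 was called in all 3 classes in any of the 5 fits with a library left out, and Fam210b and Cttnbp2 were so in 1 of the 5.

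Crabp2, which carries retinoic acid in the cytoplasm, on chromosome 3, 87948666 to 87953376, fell in 6 labels. In label 1 it was at 102 and 169 CPM at E12.5 and 29.8, 25.4 and 14.1 CPM at E14.5 (log2 change -2.39, SE 0.36, adjusted p = 0.00360). In label 4 Crabp2 was at 84.4 and 98.7 CPM against 16.4, 8.94 and 11.3 CPM (log2 change -2.77, SE 0.57, adjusted p = 0.0368). In label 0 Crabp2 was at 111 and 133 CPM against 14.2, 8.77 and 2.31 CPM (log2 change -3.67, SE 0.42, adjusted p = 0.000265). Both E12.5 libraries were high and all 3 E14.5 libraries low. In label 10 the E14.5 libraries held 1 UMI and the ratio was 38.7-fold (95% interval 6.46 to 1580). The Crabp2 calls held with any 1 library left out in labels 1 and 0. Crabp2 lost its call in label 3 without E14_1 (adjusted p up to 0.120) and in label 10 without E12_1, E12_2, E14_1 or E14_2.2 (adjusted p up to 0.0941, not tested without E12_2 or E14_1). Crabp2 lost its call in label 4 without E12_1, E12_2, E14_2.1 or E14_2.2 (adjusted p up to 0.315) and in label 2 without E12_2 (adjusted p up to 0.119).

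Cntnap2, a neurexin-related adhesion protein of axons, on chromosome 6, 45059357 to 47304213, fell in both neuron labels from its highest levels. In label 0 it was at 404 and 368 CPM at E12.5 and 112, 132 and 148 CPM at E14.5 (log2 change -1.57, SE 0.22, adjusted p = 0.00183). In label 2 Cntnap2 was at 523 and 659.6 CPM against 113, 163 and 132 CPM (log2 change -2.12, SE 0.23, adjusted p = 0.000956). It fell in labels 1 and 4 as well, from lower levels. In label 1 Cntnap2 was at 160.2 and 156 CPM against 39.7, 50.7 and 35.1 CPM (log2 change -1.87, SE 0.28, adjusted p = 0.00360). In label 4 Cntnap2 was at 74.5 and 159 CPM against 16.4, 17.9 and 11.3 CPM (log2 change -2.81, SE 0.54, adjusted p = 0.0255). Gng3, a G protein gamma subunit of neurons on chromosome 19, 8836933 to 8839194, fell in labels 1, 10, 4 and 0, and further in label 1 than in the neuron labels. In label 1 Gng3 was at 192 and 145 CPM against 29.8, 31.0 and 56.2 CPM (log2 change -2.26, SE 0.32, adjusted p = 0.00257). In label 0 Gng3 was at 568 and 621 CPM against 327, 336 and 321 CPM (log2 change -0.86, SE 0.20, adjusted p = 0.0434). These changes differed by 1.48 (SE 0.30, adjusted p = 0.000143). Against label 2, where Gng3 was at 539 and 540.2 CPM against 340, 290.2 and 368 CPM and did not pass, the difference was 1.59 (SE 0.305, adjusted p = 3.44e-05). The Cntnap2 calls held with any 1 library left out in labels 1, 0 and 2, and so did the Gng3 call in label 1. Cntnap2 lost its call in label 4 without E12_2, E14_1, E14_2.1 or E14_2.2 (adjusted p up to 0.357). Gng3 lost its call in label 10 without E14_1 or E14_2.2 (adjusted p up to 0.132) and in label 4 without any 1 of the 5 libraries (adjusted p up to 0.134). Gng3 lost its call in label 0 without any 1 of the 5 libraries (adjusted p up to 0.241). The difference of Gng3 between labels 1 and 0 was lost without E12_1, and DESeq2 did not call that between labels 1 and 2 (adjusted p = 0.0769).

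Rn7sk, the 7SK small nuclear RNA on chromosome 9, 78175303 to 78175633, fell in labels 1, 4, 7 and 2, but its E12.5 libraries stood far apart. In label 7 it was at 248 and 637 CPM at E12.5 and at 0 in all 3 E14.5 libraries, at least 31.0-fold lower with a floor of 3 UMIs over the E14.5 group. In label 0, where it was not tested, it was at 9.85 and 232 CPM against 4.26, 10.97 and 2.31 CPM. Rn7sk lost its call in label 1 without E12_2 (adjusted p up to 0.0630) and in label 4 without E14_2.2 (adjusted p up to 0.0508). Rn7sk lost its call in label 7 without E14_2.2 (adjusted p up to 0.133) and in label 2 without E12_2 (adjusted p up to 0.0941). The mitochondrial mt-Rnr2, at chromosome M, 1094 to 2675, is printed because it completes the 13 genes, although mitochondrial genes were left out of the naming rule. It fell in 6 labels by a log2 change between -0.99 in label 1 and -1.30 in label 10. The 15 mitochondrially encoded genes summed to 38193 to 51831 CPM at E12.5 and to 18226 to 32360 CPM at E14.5, with every E14.5 value below every E12.5 value in each label. The median share of mitochondrial UMIs per cell was 3.20% to 4.36% over the E12.5 libraries and labels and 1.58% to 2.92% at E14.5. mt-Rnr2 lost its call in label 1 without E12_2, E14_1 or E14_2.1 (adjusted p up to 0.332) and in label 10 without E14_1 or E14_2.1 (adjusted p up to 0.217). mt-Rnr2 lost its call in label 4 without E12_1, E12_2, E14_1 or E14_2.1 (adjusted p up to 0.240) and in label 7 without E14_1 (adjusted p up to 0.0965). mt-Rnr2 lost its call in label 0 without E12_1 or E14_1 (adjusted p up to 0.127) and in label 2 without E12_1, E14_1 or E14_2.1 (adjusted p up to 0.177). The part of RNA quality or capture in these 2 genes was not tested.

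Chac1, an enzyme that degrades glutathione, lies on chromosome 2, 119351229 to 119354381, and Mthfd2, a mitochondrial folate enzyme, on chromosome 6, 83305691 to 83325908. Both are targets of the integrated stress response, in which the transcription factor Atf4 raises genes for amino acid supply and redox balance. In label 1 Chac1 was at 92.2 and 61.7 CPM at E12.5 and 0, 0 and 0 CPM at E14.5, at least 25.9-fold lower with a floor of 3 UMIs over the E14.5 group. It fell in labels 3, 10, 7 and 2 too. Label 7 gave 189.6 and 158 CPM against 11.3, 25.3 and 0 CPM, where the E14.5 libraries held 3 UMIs and the ratio was 11.5-fold (95% interval 3.84 to 56.8). Mthfd2 fell in the 3 progenitor labels and in labels 4, 7 and 0. In label 1 Mthfd2 was at 192 and 223 CPM against 45.7, 59.2 and 7.02 CPM (log2 change -2.24, SE 0.35, adjusted p = 0.00396). In label 4 Mthfd2 was at 169 and 159 CPM against 19.1, 26.8 and 11.3 CPM (log2 change -3.04, SE 0.41, adjusted p = 0.00275). In label 7 Mthfd2 was at 390.2 and 357 CPM against 56.3, 63.4 and 120.3 CPM (log2 change -2.39, SE 0.35, adjusted p = 0.00557). Mthfd2 was high in both E12.5 libraries in each of these labels and highest in label 7. In label 0 Mthfd2 was at 76.3 and 61.8 CPM against 17.0, 19.7 and 11.6 CPM (log2 change -2.08, SE 0.38, adjusted p = 0.0109). Both calls held with any 1 library left out in label 1, and that of Mthfd2 also in label 4. Chac1 lost its call in label 3 without E14_1 or E14_2.1 (adjusted p up to 0.0669) and in label 10 without E12_1 or E14_1 (adjusted p up to 0.429). Chac1 lost its call in label 7 without E12_1, E14_1 or E14_2.2 (adjusted p up to 0.413) and in label 2 without E12_1, E12_2 or E14_2.2 (adjusted p up to 0.139, not tested without E12_1). Mthfd2 lost its call in label 3 without E14_1, E14_2.1 or E14_2.2 (adjusted p up to 0.150) and in label 10 without E12_1, E14_1, E14_2.1 or E14_2.2 (adjusted p up to 0.294). Mthfd2 lost its call in label 7 without E14_1 (adjusted p up to 0.0785) and in label 0 without E12_1 or E14_2.2 (adjusted p up to 0.164).

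A list of 39 genes of the integrated stress response, drawn up after Chac1 and Mthfd2 had been seen to fall, holds 37 others. None of these rose in any label and 5 fell in at least 1. The list was drawn up after their values had been seen. Eif4ebp1, Herpud1 and Ddit3 were themselves among the largest falls of single labels. These counts are therefore a description and no separate support. In label 1, of 27 others tested, 4 fell and 18 lay below E12.5 (median log2 change -0.37, against 0.02 over all genes tested). Eif4ebp1, which holds back cap-dependent translation, was at 119 and 115 CPM against 17.9, 19.7 and 35.1 CPM in label 1 (log2 change -2.43, SE 0.34, adjusted p = 0.00257). Herpud1, a protein of endoplasmic reticulum quality control, fell in labels 1, 3, 10 and 7. In label 1 Herpud1 was at 168 and 113 CPM against 43.7, 50.7 and 35.1 CPM (log2 change -1.65, SE 0.30, adjusted p = 0.0139). In label 7 Herpud1 was at 354 and 226 CPM against 22.5, 63.4 and 0 CPM (log2 change -3.03, SE 0.51, adjusted p = 0.0139). The amino acid transporter subunits Slc7a5 (43.7 and 45.6 CPM against 5.96, 8.46 and 0 CPM) and Slc3a2 (197 and 209 CPM against 103, 104 and 91.3 CPM) fell in label 1. Ddit3, the factor CHOP, fell in label 10 (160.2 and 103 CPM against 49.6, 23.0 and 8.19 CPM). Of the others, 1 of 27 tested fell in label 3, 2 of 24 in label 10 and 1 of 12 in label 7, and none of 15, 19 and 19 in labels 4, 0 and 2. Over all genes, 0.594%, 0.194%, 0.324% and 0.204% fell in labels 1, 3, 10 and 7. Atf4 itself passed in no label and had a log2 change of -0.52 in label 1. Of 16 chaperone genes of the endoplasmic reticulum, a list drawn up in the same way, Pdia6 fell in labels 0 and 2 and Vimp in label 2. The Eif4ebp1 call in label 1 held with any 1 library left out. Herpud1 lost its call in label 1 without E12_1 (adjusted p up to 0.0870) and in label 3 without E14_1, E14_2.1 or E14_2.2 (adjusted p up to 0.0931). Herpud1 lost its call in label 10 without E12_1, E14_1 or E14_2.2 (adjusted p up to 0.185) and in label 7 without E14_1 or E14_2.2 (adjusted p up to 0.133). Slc7a5 lost its call in label 1 without E12_1, E12_2, E14_1 or E14_2.2 (adjusted p up to 0.182). Slc3a2 lost its call in label 1 without any 1 of the 5 libraries (adjusted p up to 0.179). Ddit3 lost its call in label 10 without E12_1, E14_1, E14_2.1 or E14_2.2 (adjusted p up to 0.189). Pdia6 lost its call in label 0 without any 1 of the 5 libraries (adjusted p up to 0.274) and in label 2 without E12_1, E14_1, E14_2.1 or E14_2.2 (adjusted p up to 0.202).

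Proteins of the Atf4 and C/EBP families bind a shared response element whose core was searched as TGATGNAA on both strands of the 250 bases before each gene's start, in RefSeq promoters of GRCm38.p6. It was present in 3.91% of 27025 promoters. Of the 7 stress response genes that fell, 5 had a promoter in the table and 2 of these held the core, Chac1 and Herpud1, and of the 32 that were not called, 26 had a promoter and 7 held it. Both sites are shown because these are the 2 genes that fell and hold the core. Each has the core on the reverse strand, so that the capitals read as its reverse complement, with 40 bases on either side, at chr2:119351009-119351096 (plus strand) for Chac1, 193 bases before the start, and at chr8:94386277-94386364 (plus strand) for Herpud1, 112 bases before it. A match in the sequence is a description and no measurement of binding.
Chac1: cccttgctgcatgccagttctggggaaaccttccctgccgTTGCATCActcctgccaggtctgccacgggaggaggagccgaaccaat
Herpud1: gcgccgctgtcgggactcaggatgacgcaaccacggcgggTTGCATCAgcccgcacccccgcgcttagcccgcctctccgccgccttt

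In the progenitors, members of the early list fell and members of the late list rose. Of 20 early progenitor genes, 12 were tested in label 1, all 12 lay below E12.5 and 5 fell (median log2 change -0.66, against 0.02 over all genes). 4 of 13 fell in label 3 and 4 of 11 in label 10. Over all genes, 0.594%, 0.194% and 0.324% fell in labels 1, 3 and 10. The early list was not lower in progenitors alone: 2 of 10 fell in label 4, 0 of 5 in label 7, 1 of 8 in label 0 and 2 of 8 in label 2. Its median log2 change there was -0.54, -0.50, -0.07 and 0.25. The share over all genes that fell was 0.542%, 0.204%, 0.635% and 1.02% in these 4 labels. Hmga2, a chromatin protein of young stem cells, fell steeply in all 3 progenitor labels. In label 1 Hmga2 was at 143 and 142 CPM against 15.9, 11.3 and 21.1 CPM (log2 change -3.21, SE 0.35, adjusted p = 0.000486). In label 3 Hmga2 was at 192 and 231 CPM against 20.9, 12.9 and 0 CPM (log2 change -3.69, SE 0.37, adjusted p = 0.000770). In label 10 Hmga2 was at 303 and 238 CPM against 30.3, 23.0 and 24.6 CPM (log2 change -3.30, SE 0.32, adjusted p = 0.000194). Lix1 fell in the same 3 labels. In label 1 Lix1 was at 221 and 381 CPM against 65.5, 102 and 77.3 CPM (log2 change -1.88, SE 0.29, adjusted p = 0.00388). Ccnd1, the G1 cyclin D1, fell in them and in label 4. In label 1 Ccnd1 was at 413 and 343 CPM against 135, 109.9 and 98.3 CPM (log2 change -1.68, SE 0.23, adjusted p = 0.00257). In label 4 Ccnd1 was at 362 and 243 CPM against 79.2, 103 and 79.2 CPM (log2 change -1.82, SE 0.29, adjusted p = 0.00733). Hmga2 held in the 3 labels with any 1 library left out, Lix1 in labels 1 and 10 and Ccnd1 in label 1. Lix1 lost its call in label 3 without E14_1 or E14_2.1 (adjusted p up to 0.228). Ccnd1 lost its call in label 3 without E14_1 or E14_2.1 (adjusted p up to 0.0975) and in label 10 without E12_1, E14_1, E14_2.1 or E14_2.2 (adjusted p up to 0.140). Ccnd1 lost its call in label 4 without E12_1 or E14_2.2 (adjusted p up to 0.140).

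Of 36 late progenitor and glial genes, 10 of 29 tested rose in label 1 (median log2 change 0.91), 9 of 28 in label 3 (0.82) and 11 of 27 in label 10 (1.21). No member fell in these labels, where 0.942%, 0.652% and 0.768% of all genes rose. Mt2, a metallothionein that binds metal ions, was at 21.8 and 45.6 CPM at E12.5 and 351, 527 and 309 CPM at E14.5 in label 1 (log2 change 3.58, SE 0.36, adjusted p = 0.000302). Ndrg2, a protein of astrocytes, was at 70.4 and 85.8 CPM against 347, 380.5 and 288 CPM there (log2 change 2.13, SE 0.25, adjusted p = 0.000870). Mfge8, a secreted glycoprotein, was at 41.3 and 40.2 CPM against 157, 124 and 281 CPM (log2 change 2.09, SE 0.36, adjusted p = 0.00921). The matrix proteins brevican and tenascin C rose from almost nothing. In label 1 Bcan was at 0 and 2.68 CPM against 81.4, 36.6 and 63.2 CPM, with 1 UMI at E12.5 and a ratio of 49.4-fold (95% interval 8.55 to 1980). Tnc was at 0 and 5.36 CPM against 71.5, 53.5 and 70.2 CPM, with 2 UMIs and a ratio of 25.5-fold (95% interval 6.78 to 215). In label 10 Bcan was at 0 in both E12.5 libraries and was at least 12.7-fold higher at E14.5. These 5 calls held in label 1 with any 1 library left out. Outside the list, the protease Htra1 was at 2.43 and 0 CPM against 61.5, 53.5 and 98.3 CPM in label 1, with 1 UMI at E12.5 and a ratio of 50.2-fold (95% interval 8.69 to 2010). Dct, better known from pigment cells, was at 0 and 8.04 CPM against 101, 73.3 and 49.2 CPM, with 3 UMIs and a ratio of 22-fold (95% interval 7.26 to 109). Both calls held likewise.

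Part of that list moved outside the progenitors as well. In label 4, 4 of 18 tested rose, Ndrg2 (9.93 and 22.8 CPM against 118, 121 and 153 CPM, log2 change 3.04, SE 0.49, adjusted p = 0.00903), Mt1, Mt2 and Zbtb20. Mt2 was at 0 in both E12.5 libraries of label 4 and at 128, 84.9 and 192 CPM at E14.5, at least 14.5-fold higher. In droplet data, free RNA from other cells adds UMIs to cells that lack a gene. The neurons of label 0 held Mt2 at 0 and 0 CPM against 9.94, 17.6 and 6.94 CPM and Ndrg2 at 7.38 and 6.18 CPM against 25.6, 15.3 and 23.1 CPM. The part of free RNA in the label 4 values was not tested. In label 0, 3 of 13 tested rose, Zbtb20, Ptprz1 and the retinoid-binding protein Rlbp1. In label 2, of 12 tested, Rlbp1 and Ptprz1 rose and Slc1a2, a glutamate transporter, fell. Ptprz1, a receptor phosphatase of radial glia and young neurons, was at 47.1 and 71.6 CPM against 346, 308 and 613 CPM in label 2 (log2 change 2.81, SE 0.35, adjusted p = 0.00133). In label 2 Slc1a2 was at 115 and 98.5 CPM against 15.7, 17.9 and 36.3 CPM (log2 change -2.37, SE 0.35, adjusted p = 0.00416). In label 7 none of 7 tested members passed. Over all genes, 0.441% rose in label 4, 0.975% in label 0 and 0.941% in label 2. The label 2 calls of Ptprz1 and Slc1a2 held with any 1 library left out. Ndrg2 lost its call in label 4 without E12_1 or E14_2.2 (adjusted p up to 0.140). Mt2 lost its call in label 4 without E14_2.2 (adjusted p up to 0.0569). Mt1 lost its call in label 4 without E12_1, E12_2, E14_2.1 or E14_2.2 (adjusted p up to 0.145). Ptprz1 lost its call in label 0 without E12_2 or E14_2.2 (adjusted p up to 0.126). Rlbp1 lost its call in label 0 without E12_1 or E14_2.2 (adjusted p up to 0.122) and in label 2 without E12_2, E14_1 or E14_2.1 (adjusted p up to 0.0746).

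**Figure D4:**
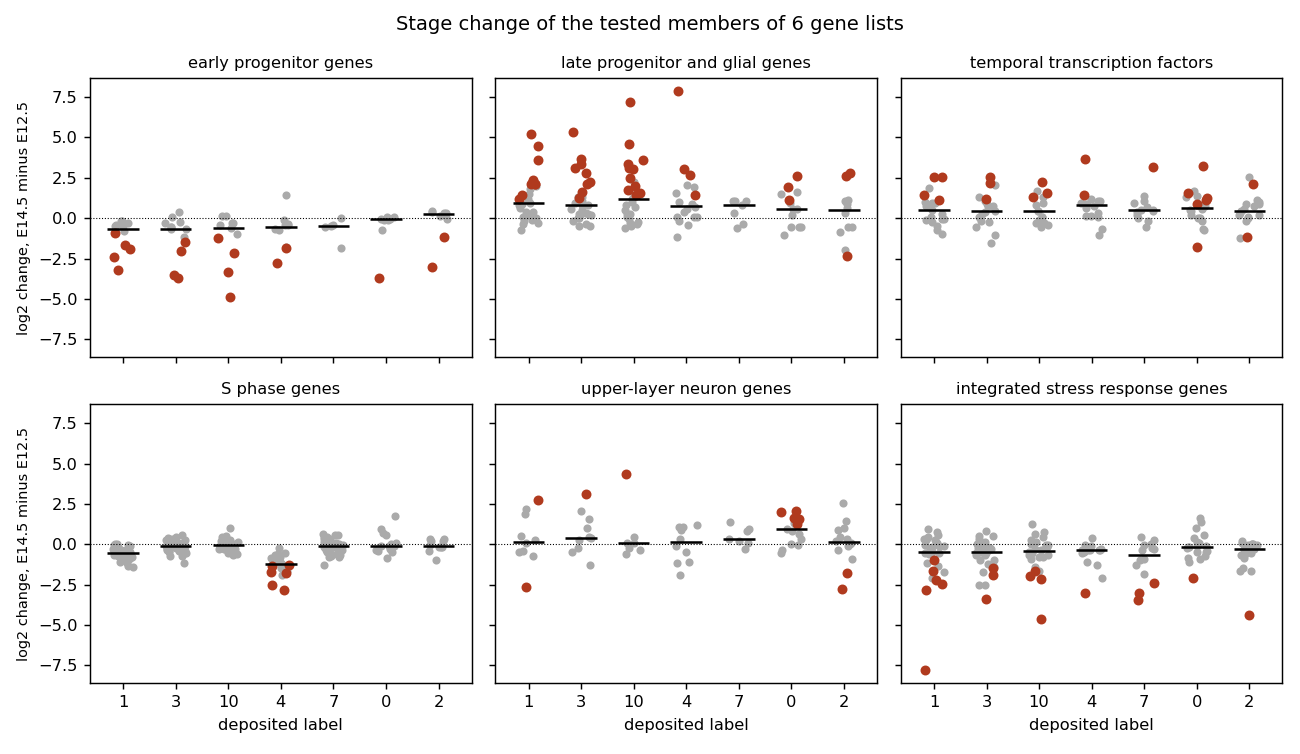
Log2 change from E12.5 to E14.5 (vertical axis) of each tested member of 6 gene lists in the 7 labels (horizontal axis), with 1 point per gene and the list median as a bar. Early progenitor genes lie mostly below 0 in labels 1, 3 and 10, late progenitor and glial genes mostly above 0, and all 25 tested S phase genes lie below 0 in label 4.

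Igfbpl1 and Gadd45g, genes of cells leaving the apical state, also rose in progenitors. Igfbpl1 was at 77.7 and 42.9 CPM against 324, 355 and 414 CPM in label 1 (log2 change 2.56, SE 0.29, adjusted p = 0.000673) and rose in labels 3 and 10. Gadd45g was at 14.6 and 24.1 CPM against 79.4, 141 and 169 CPM in label 1 (log2 change 2.65, SE 0.43, adjusted p = 0.00593). Beside these, the 12 intermediate progenitor markers summed to 466 and 442 CPM in label 1 at E12.5 and to 707, 953 and 864 CPM at E14.5, and the 7 of them tested all lay above E12.5, with Gadd45g and Mfap4 passing. In label 10 the list summed to 269 and 294 CPM and to 675, 593 and 344 CPM, with 5 of 5 tested above E12.5 and none passing. In label 4 the same list summed to 7791 and 7743 CPM and to 8391, 8606 and 7526 CPM. In label 3 markers of neurons moved with the stage: the 16 projection neuron markers summed to 755 and 795 CPM at E12.5 and to 1523, 1466 and 1039 CPM at E14.5. All 12 of them tested there lay above E12.5 (median log2 change 1.31), and Neurod6 and Mapt rose. In label 3 Neurod6 was at 60.3 and 66.7 CPM against 204, 257 and 101 CPM (log2 change 1.67, SE 0.32, adjusted p = 0.0258). In label 3 Mapt was at 11.4 and 7.62 CPM against 52.1, 60 and 38.0 CPM (log2 change 2.41, SE 0.48, adjusted p = 0.0343). Over labels 1 and 10 the median change of these markers was 0.07 and -0.03, and none passed. The part of intermediate or neuronal cells or RNA in the changes of labels 1, 3 and 10 was not tested. Both label 1 calls held with any 1 library left out. Igfbpl1 lost its call in label 3 without E14_1 (adjusted p up to 0.0653). Neurod6 lost its call in label 3 without E14_1 or E14_2.1 (adjusted p up to 0.182). Mapt lost its call in label 3 without E12_1, E12_2, E14_1 or E14_2.1 (adjusted p up to 0.211).

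In the intermediate cells of label 4, genes of DNA replication were lower at E14.5. All 25 S phase genes tested lay below E12.5 (median log2 change -1.23, against -0.01 over all genes) and 6 of them fell: Tyms, Rrm2, Prim1, Hells, Clspn and Usp1. The whole S phase list summed to 4305 and 3378 CPM at E12.5 and 1669, 1444 and 1720 CPM at E14.5. Over all genes in label 4, 0.542% fell. Lig1, the DNA ligase that joins replication fragments, was at 308 and 357 CPM at E12.5 and 60.1, 58.1 and 39.6 CPM at E14.5 (log2 change -2.60, SE 0.29, adjusted p = 0.000492). Top2a, a topoisomerase of dividing cells, was at 129 and 189.8 CPM against 27.3, 31.3 and 28.3 CPM (log2 change -2.42, SE 0.39, adjusted p = 0.00814). Prim1, a primase subunit, was at 333 and 220.1 CPM against 101, 49.2 and 84.9 CPM (log2 change -1.80, SE 0.32, adjusted p = 0.0182). Label 7, the other intermediate cluster, held S phase genes at 8267 and 7279 CPM and 7048, 7513 and 6829 CPM, and none of 29 passed there. In label 1, 34 of 35 lay below E12.5 (median -0.53) and none passed. The Lig1 call held with any 1 library left out, and its change was lower than in label 1 by 1.91 (SE 0.29, adjusted p = 1.99e-05). Top2a lost its call in label 4 without E12_2 or E14_2.2 (adjusted p up to 0.0691). Prim1 lost its call in label 4 without E12_1, E14_2.1 or E14_2.2 (adjusted p up to 0.185). Clspn lost its call in label 4 without E12_1 or E14_2.2 (adjusted p up to 0.326). Rrm2 lost its call in label 4 without E12_1, E14_2.1 or E14_2.2 (adjusted p up to 0.592). Tyms lost its call in label 4 without E12_1, E12_2, E14_2.1 or E14_2.2 (adjusted p up to 0.189). Hells lost its call in label 4 without any 1 of the 5 libraries (adjusted p up to 0.379). Usp1 lost its call in label 4 without any 1 of the 5 libraries (adjusted p up to 0.175).

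Mpped1, a metallophosphoesterase, appeared in label 4 and rose in both neuron labels. It was at 4.97 and 0 CPM at E12.5 and 120.2, 107 and 164 CPM at E14.5 in label 4, where the E12.5 libraries held 1 UMI and the ratio was 42.2-fold (95% interval 7.39 to 1680). In label 0 Mpped1 was at 7.38 and 15.4 CPM against 227, 228 and 294 CPM (log2 change 4.46, SE 0.37, adjusted p = 3.73e-05). In label 2 Mpped1 was at 136 and 98.5 CPM against 360.4, 344 and 336 CPM (log2 change 1.56, SE 0.23, adjusted p = 0.00416). Label 2 thus held it before E14.5. Its relative Mpped2 rose in labels 4, 7 and 0. In label 7 Mpped2 was at 76.6 and 65.5 CPM against 236, 342 and 391 CPM (log2 change 2.12, SE 0.34, adjusted p = 0.0110). Neurog1, a proneural transcription factor, fell in label 7, from 292 and 182 CPM against 22.5, 38.0 and 30.1 CPM (log2 change -2.94, SE 0.49, adjusted p = 0.0139). Eomes, which defines intermediate progenitors, did not pass in label 4 (1624 and 1943 CPM against 1743, 2271 and 1879 CPM) or label 7 (1145 and 1260 CPM against 1227, 1419 and 993 CPM), and its groups overlapped in both. The Mpped1 call held in label 0 with any 1 library left out. Mpped1 lost its call in label 4 without E14_2.2 (adjusted p up to 0.0508) and in label 2 without E12_2 (adjusted p up to 0.0514). Mpped2 lost its call in label 4 without E12_1, E12_2, E14_1 or E14_2.2 (adjusted p up to 0.103) and in label 7 without E14_2.1 or E14_2.2 (adjusted p up to 0.133). Mpped2 lost its call in label 0 without E12_1 (adjusted p up to 0.0520). Neurog1 lost its call in label 7 without E12_1, E14_1 or E14_2.2 (adjusted p up to 0.286).

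In the neurons of label 0, 5 of 15 tested upper-layer genes rose, from a list of 20 (median log2 change 0.92, against 0 over all genes). None fell, and 11 lay above and 4 below E12.5. Over all genes, 0.975% rose and 0.635% fell in label 0, and 0.941% rose and 1.02% fell in label 2. Unc5d, a netrin receptor, was at 78.8 and 58.7 CPM at E12.5 and 234, 176 and 229 CPM at E14.5 (log2 change 1.62, SE 0.27, adjusted p = 0.00513). It was above its E12.5 range in each E14.5 library. The transcription factors Lhx2 and Pou3f2 and the cadherin Cdh10 rose too. In label 0 Lhx2 was at 224 and 201 CPM against 564, 519.8 and 453 CPM (log2 change 1.27, SE 0.22, adjusted p = 0.00737). In label 0 Pou3f2 was at 88.6 and 49.4 CPM against 186, 169 and 270.5 CPM (log2 change 1.56, SE 0.31, adjusted p = 0.0163). In label 2 none of 14 rose and Plxna4 and Plxnd1 fell. Deep-layer genes went both ways. Of 13 tested in label 0, from a list of 19, Nfib and Cntn2 rose and Tbr1 fell, with 9 above and 4 below E12.5 (median log2 change 0.20). Of 15 tested in label 2, Ldb2 and Cntn2 rose and Tbr1 and Syt4 fell, with 10 above and 5 below (median 0.32). Tbr1 is a transcription factor of deep-layer neurons. In label 0 Tbr1 was at 423 and 525 CPM against 241, 254 and 245 CPM (log2 change -0.94, SE 0.21, adjusted p = 0.0337). In label 2 Tbr1 was at 471 and 454 CPM against 253, 219 and 218 CPM (log2 change -0.997, SE 0.20, adjusted p = 0.0196). Cntn2, an axonal adhesion protein, rose in both labels. In label 0 Cntn2 was at 339.7 and 355 CPM against 605, 798 and 698 CPM (log2 change 1.01, SE 0.22, adjusted p = 0.0331). In label 2 Cntn2 was at 342 and 552 CPM against 815, 1224 and 1004 CPM (log2 change 1.18, SE 0.26, adjusted p = 0.0376). Bcl11b and Fezf2, which act in subcerebral neurons, passed in no label. Unc5d lost its call in label 0 without E12_2 (adjusted p up to 0.0656). Lhx2 lost its call in label 0 without E12_1 or E12_2 (adjusted p up to 0.113). Pou3f2 lost its call in label 0 without E12_2 or E14_2.2 (adjusted p up to 0.149). Cdh10 lost its call in label 0 without E12_1, E12_2, E14_2.1 or E14_2.2 (adjusted p up to 0.141). Plxna4 lost its call in label 2 without E14_2.2 (adjusted p up to 0.0710). Plxnd1 lost its call in label 2 without E12_1, E12_2 or E14_1 (adjusted p up to 0.316). Tbr1 lost its call in label 0 without any 1 of the 5 libraries (adjusted p up to 0.262) and in label 2 without any 1 of the 5 libraries (adjusted p up to 0.173). Cntn2 lost its call in label 0 without E12_1, E12_2, E14_2.1 or E14_2.2 (adjusted p up to 0.274) and in label 2 without E12_1, E14_1, E14_2.1 or E14_2.2 (adjusted p up to 0.373). Ldb2 lost its call in label 2 without E12_2, E14_1 or E14_2.1 (adjusted p up to 0.169).

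Guidance and adhesion genes moved in both directions in the neurons. In label 0, 4 of 21 tested axon genes rose and 1 fell (median log2 change -0.04), where 0.975% of all genes rose and 0.635% fell. In label 2, 4 of 22 rose and 2 fell (median -0.29), where 0.941% of all genes rose and 1.02% fell. Nrp1, a semaphorin receptor, rose in both labels. In label 2 Nrp1 was at 31.4 and 38.8 CPM against 192, 161 and 259 CPM (log2 change 2.50, SE 0.32, adjusted p = 0.00133). In label 0 Nrp1 was at 443 and 392 CPM against 835, 803 and 788 CPM (log2 change 0.95, SE 0.21, adjusted p = 0.0349). Ntm, an adhesion protein of axons, rose in label 2, from 31.4 and 14.9 CPM against 212, 214 and 173 CPM (log2 change 3.08, SE 0.33, adjusted p = 0.000956). Ezr, which links membrane to actin, rose in both labels. In label 0 Ezr was at 73.8 and 49.4 CPM against 405, 329 and 273 CPM (log2 change 2.43, SE 0.29, adjusted p = 0.000389). Cbln2, a synaptic organizer, and Pcdh9, a protocadherin, fell in both. In label 0 Cbln2 was at 197 and 188 CPM against 29.8, 15.3 and 16.2 CPM (log2 change -3.15, SE 0.31, adjusted p = 8.41e-05). In label 0 Pcdh9 was at 212 and 256 CPM against 49.7, 30.7 and 34.7 CPM (log2 change -2.56, SE 0.26, adjusted p = 0.000134). Pdzrn3 rose in label 0 from 22.1 and 21.6 CPM against 176, 202 and 215 CPM (log2 change 3.15, SE 0.30, adjusted p = 8.41e-05). These calls of Ntm, Ezr, Cbln2, Pcdh9 and Pdzrn3 and that of Nrp1 in label 2 held with any 1 library left out. Nrp1 lost its call in label 0 without any 1 of the 5 libraries (adjusted p up to 0.262).

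In label 2, the cluster with the higher neuron marker levels, 3 of 18 tested synapse genes fell and none rose. Their median log2 change was -0.25, with 8 above and 10 below E12.5. Over all genes in label 2, 1.02% fell and 0.941% rose. In label 0, 1 of 12 tested synapse genes rose and none fell (median log2 change -0.17, with 5 above and 7 below). The synapse list summed there to 2464 and 2379 CPM against 2739, 2877 and 3043 CPM. The synaptotagmins Syt1 and Syt4 were among the falls of label 2. In label 2 Syt4 was at 876 and 599.9 CPM against 259.7, 192 and 259 CPM (log2 change -1.65, SE 0.23, adjusted p = 0.00260). Ndn, a gene of postmitotic neurons, was at 1313 and 809 CPM against 274, 230 and 191 CPM (log2 change -2.18, SE 0.25, adjusted p = 0.00111). Syn2, a synapsin outside the list, was at 175 and 110.4 CPM against 33.0, 17.9 and 13.6 CPM (log2 change -2.58, SE 0.36, adjusted p = 0.00241). Nap1l5 and Jakmip1 rose. In label 2 Nap1l5 was at 7.84 and 8.95 CPM against 112, 103 and 114 CPM (log2 change 3.66, SE 0.39, adjusted p = 0.000956). In label 2 Jakmip1 was at 31.4 and 26.9 CPM against 159, 158 and 259 CPM (log2 change 2.66, SE 0.34, adjusted p = 0.00143). Nr2f1, a transcription factor graded over the cortex, fell in label 2, and its relative Nr2f2 fell in label 0. In label 2 Nr2f1 was at 298 and 445 CPM against 168, 176 and 141 CPM (log2 change -1.18, SE 0.23, adjusted p = 0.0185). In label 0 Nr2f2 was at 179.7 and 198 CPM against 27.0, 81.2 and 64.7 CPM (log2 change -1.76, SE 0.34, adjusted p = 0.0143). The Syt4, Ndn, Syn2, Nap1l5 and Jakmip1 calls held with any 1 library left out. Syt1 lost its call in label 2 without any 1 of the 5 libraries (adjusted p up to 0.133). Nr2f1 lost its call in label 2 without E12_2, E14_1, E14_2.1 or E14_2.2 (adjusted p up to 0.193). Nr2f2 lost its call in label 0 without E14_2.2 (adjusted p up to 0.0970).

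Of 12 tested immediate early and heat shock genes, which respond to activity, dissociation or stress, Fos, Ier2 and Jun rose in at least 1 label and none fell. By label, 1 of 9, 1 of 11, 1 of 9, 1 of 8, 3 of 11 and 1 of 11 rose in labels 1, 3, 10, 4, 0 and 2. Over all genes, 0.942%, 0.652%, 0.768%, 0.441%, 0.975% and 0.941% rose in these labels. Fos was at 4.85 and 10.7 CPM at E12.5 and 85.4, 104 and 246 CPM at E14.5 in label 1 (log2 change 4.02, SE 0.60, adjusted p = 0.00360) and rose in labels 3, 10 and 0. In label 0 it was at 4.92 and 0 CPM against 179, 87.7 and 291 CPM, with 2 UMIs at E12.5 and a ratio of 66.9-fold (95% interval 18.4 to 555). Ier2 rose in labels 4, 0 and 2 and Jun in label 0. In label 7 none of 6 tested passed, with 3 above and 3 below E12.5. The whole list of 22 summed to 1533 to 3038 CPM at E12.5 and to 2319 to 3928 CPM at E14.5, and all 3 E14.5 sums lay above both E12.5 sums in 4 of the 7 labels. The Fos calls held with any 1 library left out in labels 1 and 0, and so did the Ier2 call in label 0. Fos lost its call in label 3 without E14_1 (adjusted p up to 0.106) and in label 10 without E14_1 (adjusted p up to 0.0748). Ier2 lost its call in label 4 without any 1 of the 5 libraries (adjusted p up to 0.195) and in label 2 without E12_2, E14_1, E14_2.1 or E14_2.2 (adjusted p up to 0.157). Jun lost its call in label 0 without E12_1, E12_2 or E14_2.1 (adjusted p up to 0.223). The part of handling in the other changes was not tested.

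Several genes often followed over this period did not pass. Pax6 and Fabp7, genes of radial glia, had log2 changes of 0.14 and 0.41 in label 1, and Igf2bp1 of -0.18. Lin28b was too rare to test: it was at 2.43 and 8.04 CPM in label 1 at E12.5 and at 0 in all 3 E14.5 libraries. Tcf4, a basic helix-loop-helix factor, rose in label 1 (1199 and 1006 CPM against 2932, 2497 and 1735 CPM, log2 change 1.12, SE 0.26, adjusted p = 0.0450). Tcf4 lost its call in label 1 without E12_1, E12_2, E14_1 or E14_2.1 (adjusted p up to 0.188). No cholesterol synthesis gene passed in any label, and of the glycolysis list Aldoc, which also marks glia, rose in the 3 progenitor labels. In the Wnt list Lef1 rose in label 1 (17.0 and 24.1 CPM against 97.3, 78.9 and 77.3 CPM) and Dkk3 in labels 1 and 10, and beside Ccnd1 the receptor Fzd8 fell in label 10. In the Notch list Nrarp rose in label 4 and Hey1 fell in label 10. A change of 2-fold was recovered for 28.4% of altered genes in simulated counts of label 1 and a change of 4-fold for 99.1%, so that a missed call at small size says little. Only genes above a minimum summed UMI count were altered, and all genes had the same assumed spread. These rates therefore do not cover rarer genes or genes that vary more between libraries. Lef1 lost its call in label 1 without E12_1 or E14_1 (adjusted p up to 0.0637). Dkk3 lost its call in label 1 without any 1 of the 5 libraries (adjusted p up to 0.236) and in label 10 without E12_2, E14_1, E14_2.1 or E14_2.2 (adjusted p up to 0.182). Fzd8 lost its call in label 10 without E14_1, E14_2.1 or E14_2.2 (adjusted p up to 0.0724). Nrarp lost its call in label 4 without E12_1, E12_2, E14_1 or E14_2.2 (adjusted p up to 0.134). Hey1 lost its call in label 10 without any 1 of the 5 libraries (adjusted p up to 0.148). Aldoc lost its call in label 1 without E12_1, E12_2, E14_1 or E14_2.1 (adjusted p up to 0.153) and in label 3 without any 1 of the 5 libraries (adjusted p up to 0.242). Aldoc lost its call in label 10 without E14_1 (adjusted p up to 0.0631).

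Whether a change differed between classes was tested directly for label 1 against labels 4, 0 and 2, with the library as a block. The change differed for 25 of 7028 genes (0.356%) between labels 1 and 4, more positive in label 4 for 6 (0.0854%) and more negative for 19 (0.27%). It differed for 172 of 7996 (2.15%) between labels 1 and 0, with 95 (1.19%) more positive and 77 (0.963%) more negative in label 0. It differed for 194 of 8073 (2.4%) between labels 1 and 2, with 82 (1.02%) more positive and 112 (1.39%) more negative in label 2. Of the 13 recurring genes, Draxin and Gng3 differed as given above, and Cttnbp2 changed less in label 2 than in label 1 (difference -1.25, SE 0.38, adjusted p = 0.0465). Chac1 passed between labels 1 and 0 (adjusted p = 0.0475), where its E14.5 count of 0 in label 1 allows no fold. These Cttnbp2 and Chac1 differences were lost without E12_1, E14_1 or E14_2.1, and Chac1 also without either of the other libraries. The difference in Nfix was 1.12 (SE 0.32, adjusted p = 0.161) between labels 1 and 4 and 0.74 (SE 0.24, adjusted p = 0.0784) between labels 1 and 0, neither of which passed. In simulated counts of labels 1 and 0 this test recovered 8.3% of 2-fold and 56.5% of 4-fold differences. A difference that did not pass therefore says little. Mpped1 rose in labels 4 and 0 and not in label 1 (log2 change 0.45), with differences of 4.66 (SE 1.06, adjusted p = 0.0186) and 3.95 (SE 0.71, adjusted p = 8.33e-06). The first of these was lost without E12_1, E12_2 or E14_2.2.

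**Figure D5:**
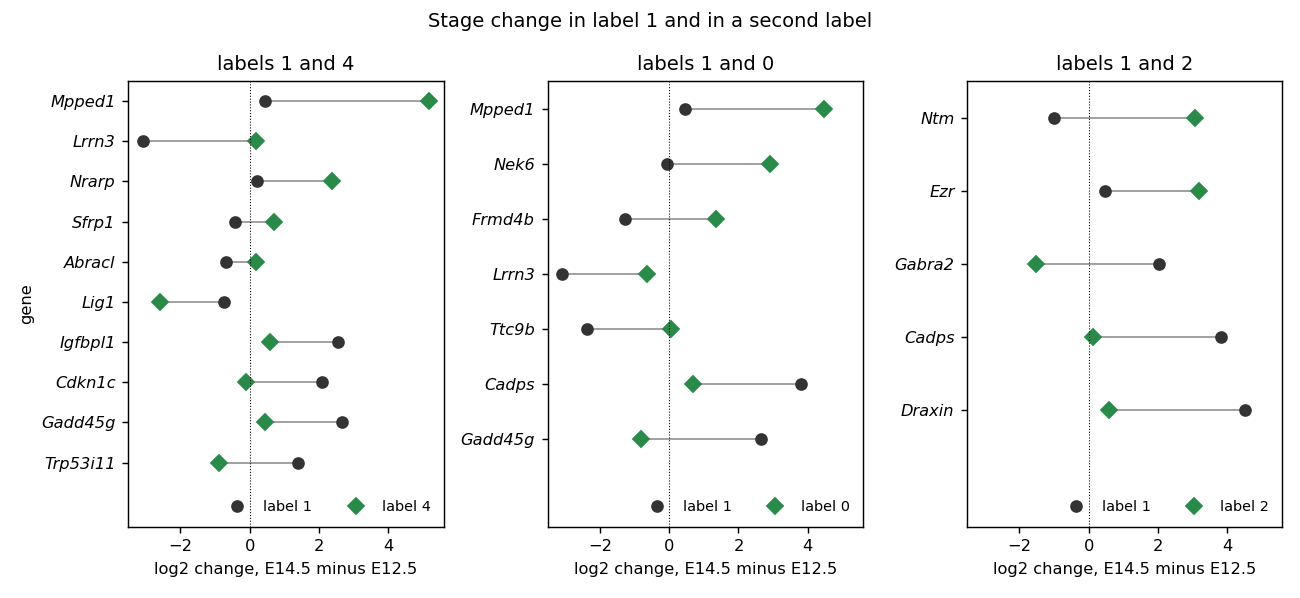
Log2 change from E12.5 to E14.5 (horizontal axis) in label 1 and in a second label for the genes named for the largest differences that have a fitted change in both labels, with 10 genes for labels 1 and 4, 7 for labels 1 and 0 and 5 for labels 1 and 2. A line joins the 2 changes of each gene. Mpped1 stands at 0.45 in label 1 and at 5.18 in label 4 and 4.46 in label 0.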

How the data were processed

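CD-1 dorsal forebrain cells were released with papain and captured by Drop-seq, per the labels' protocols. Reads went through Drop-seq tools 3.1, the mm10 build and Seurat 3.1.5, per the submitters' processing notes. Aligner, annotation and counted strand are not given in the sources used here, so reads of overlapping or antisense genes may be mixed. The authors deposited counts, whole UMI numbers of 21862 genes in 10261 cells with at least 501 genes each, together with a library and 1 of 19 cluster labels per cell. From these deposited counts, UMIs were summed per label and library where at least 10 cells were present, after 3 cells with over 2% haemoglobin UMIs had been set aside. No doublet caller was run.

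The quasi-likelihood test of edgeR 4.0.16 (R 4.3.3) was run per label, two-sided, after filterByExpr and TMM scaling, with Benjamini-Hochberg adjustment over its tested genes and a threshold of 0.05. Differences between labels were label by stage terms with library as a block. Where 1 group held 1 to 3 UMIs, the ratio of summed counts has an exact binomial 95% interval, and a group at 0 was set to a floor of 3 UMIs. Both cover counting error only, as do depth limits. Simulated counts with known changes, placed only in genes above a minimum summed UMI count and with the same assumed spread for all genes, were used to test the fits. Genes were named by rule: those called in all 3 classes, the 5 largest changes per direction, label and difference with a mean of at least 50 CPM, up to 4 called members per direction of 25 lists, and 16 genes given regardless, with mitochondrial, ribosomal, haemoglobin and sex-linked genes left out of the first groups. The members, the lists and the rule were chosen with earlier results of these data known, and 2 further lists were drawn up after their values had been seen. Alternatives were DESeq2 1.42.0, RLE scaling, no low count filter, a replicate block, libraries summed per sample, cells with at least 1000 UMIs, at least 20 cells per library, and each library left out. Chosen after seeing the data were leaving out split barcodes and a block with 2 against 2 libraries. Some genes that the rule selects are not reported here.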

Additional observations from a re-analysis of the deposited data

Results flagged for a closer look

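The stage change differed between label 1, progenitors, and a second label for 30 named gene and label pairs, by a test of the difference itself. Each value is the log2 change from E12.5 to E14.5 in the second label minus that in label 1, with adjusted p-values from edgeR's quasi-likelihood test.

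Against label 4, the intermediate cells, the change was more positive in Mpped1 (4.66), Lrrn3, a leucine-rich repeat protein (3.18), Nrarp, a Notch target (2.16), Sfrp1, a secreted Wnt inhibitor (1.05), and Abracl (0.91), and more negative in Trp53i11 (-2.22), Gadd45g (-2.16), Cdkn1c, a cyclin-dependent kinase inhibitor (-2.12), Igfbpl1 (-1.96) and Lig1 (-1.91). Lrrn3 fell in label 1 (log2 change -3.09) and was at 0.17 in label 4. The differences of Lrrn3, Igfbpl1 and Lig1 held with any 1 library left out. Gadd45g was lost without E12_1, Sfrp1 without E12_2 or E14_2.2, and the other 5 with 3 or 4 of the libraries left out in turn. DESeq2 called 3 of the 10, Gadd45g, Igfbpl1 and Lig1.

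Against label 0, the change was more positive in Mpped1 (3.95), Nek6, a mitotic kinase (2.93), Frmd4b (2.56), Lrrn3 (2.46) and Ttc9b (2.45), and more negative in Pnmal2 (-4.67), Wnt7b, a Wnt ligand (-3.55), Gadd45g (-3.35), Nkd1, a Wnt pathway inhibitor (-3.16), and Cadps, a protein of vesicle release (-3.11). Mpped1, Nek6, Frmd4b and Gadd45g held with any 1 library left out, and Ttc9b in none of the 5 fits. Cadps and Pnmal2 were lost without E12_2, Lrrn3 and Nkd1 without E12_2 or E14_2.1, and Wnt7b without E12_1, E12_2 or E14_2.1. DESeq2 gave an adjusted p for 4 of the 10, Mpped1, Nek6, Frmd4b and Gadd45g, and called all 4.

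Against label 2, the change was more positive in Ntm (4.15), Tspan18, a tetraspanin (4.09), Nek6 (3.25), Bend5 (2.78) and Ezr (2.77), and more negative in Pnmal2 (-4.55), Draxin (-3.91), Wnt7b (-3.83), Cadps (-3.62) and Gabra2 (-3.56). Cadps rose in label 1 (log2 change 3.81, adjusted p = 0.00257) and was at 0.13 in label 2. Ntm, Ezr, Pnmal2, Draxin, Cadps and Gabra2 held with any 1 library left out. Tspan18 was lost without E12_2, Bend5 without E12_1, Wnt7b without E12_1, E12_2 or E14_2.1, and Nek6 without E12_1, E12_2, E14_2.1 or E14_2.2. DESeq2 called 5 of the 10, Ntm, Ezr, Draxin, Cadps and Gabra2. Pnmal2, Wnt7b, Nkd1 and Bend5 in label 1, and Tspan18 and Nek6 in label 2, were at too low a level to be tested in that label alone, so that only the difference has a test.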

How the results depend on the processing

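The number of genes called per label depended on the fit. Of 306 results of named genes, 227 were called, and none of these reversed its direction under an alternative that gave it an adjusted p. For results without a call, a change of sign was counted only where the alternative passed, and there was none. The counts given in the text were 106, 61, 64, 49, 10, 109 and 131 in labels 1, 3, 10, 4, 7, 0 and 2. DESeq2 called 61 genes in label 1, 27 in label 10 and 26 in label 4, differences for 4 genes between labels 1 and 4, 44 between labels 1 and 0 and 37 between labels 1 and 2 (25, 172 and 194 in edgeR), and 7 recurring genes in place of 13. Without a low count filter 231, 134, 118, 144, 39, 226 and 248 genes were called in the same order of labels, and 29 recurred. With at least 20 cells per library label 7 gave 3. With cells of at least 1000 UMIs 10 differences passed between labels 1 and 4 and 8 genes recurred. With libraries summed per sample, 1 sample was left against 2. That fit has no spread within E12.5, so its counts for labels, differences and recurring genes are not given. Gng3, Zbtb20 and mt-Rnr2 no longer recurred in all 3 classes in it, and some genes outside the 13 did. With each library left out in turn, calls ran from 62 to 78 in label 1, 4 to 56 in label 3, 19 to 92 in label 10, 5 to 28 in label 4, 3 to 34 in label 7, 47 to 114 in label 0 and 51 to 69 in label 2. Differences ran from 9 to 24, 68 to 144 and 95 to 194, and recurring genes from 2 (without E14_2.2) to 7. The causes were not tested beyond the fewer samples of these fits. RLE scaling and leaving out the split barcodes each gave 13 recurring genes.

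The replicate block, with the library suffix as the replicate number, gave 182 calls in label 1, 135 in label 3, 134 in label 4, 63 in label 7, 207 in label 0, 222 in label 2 and 28 recurring genes, and a block without E14_2.2, with 2 against 2 libraries and chosen after seeing the data, gave 469 in label 1, 383 in label 3, 228 in label 10, 28 in label 7, 619 in label 0, 587 in label 2 and 36 recurring genes. Draxin passed in label 7 with both blocks (adjusted p = 8.01e-05 and 0.0262) and in label 2 with 2 against 2 libraries alone (0.142 and 0.00818). The suffix is no replicate number of the labels. Deviations of E12_1 from the E12.5 mean and of E14_1 from the mean of E14_1 and E14_2.1 correlated over genes at 0.264 to 0.55. With 2 libraries on each side, E12_2 and E14_2.1 give the same values. Deviations of E12_2 and of E14_2.2, the latter from the mean of all E14.5 libraries, correlated at 0.043 to 0.095 over the 7 labels. The ranges are therefore unlike measures.

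The E12.5 side rests on 1 sample, E14_2.2 gave few cells to labels 3, 7 and 10, and genes with few UMIs over the libraries of a label were not tested. In simulated counts a 2-fold change was recovered for 28.4% of altered genes in label 1 and 42.2% in label 7, and a 4-fold change for 99.1% and 86.8%. In the test of the difference between labels 1 and 0 the rates were 8.3% and 56.5%, with genes chosen by their count in label 1. The altered genes all lay above a minimum summed UMI count and shared an assumed spread, so rarer or more variable genes are not covered.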
